A study of Mus musculus with 5 samples.

Results

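Cxcr6, Cxcl16, Ccr9 and Ccl25 are 4 of the 31253 genes counted in each library: the chemokine receptors CXCR6 and CCR9 and the ligand that each of them binds. They were taken by gene symbol, without regard to their values, and read in 4 single-cell libraries of sorted mouse lymphoid cells. The study asks, by its title, whether group 3 innate lymphoid cells (ILC3s) of the intestine move to the kidney in renal fibrosis. All mice were male, 8 to 10 weeks old. In unilateral ureteral obstruction (UUO) the left ureter is tied and cut, and in sham surgery it was exposed and handled but not tied. Small intestine came from wild-type mice at day 3 of UUO or after sham surgery. Kidney came from B6.Cg-Pdcd1tm1.1Shr/J mice, which carry the label PD-1 knockout, at day 3 of UUO, and from wild-type mice at day 14. The labels call the sorted intestinal cells group 3 innate lymphoid cells and the sorted kidney cells innate lymphoid cells. The labels give neither the number of mice behind a library nor the surface markers of the sort. The extraction protocol in the labels names pulmonary artery tissue, which matches neither organ.

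CXCR6 is carried by tissue-resident and activated T cells, NKT cells and innate lymphoid cells, and its ligand CXCL16 is made as a membrane protein by dendritic cells, macrophages and some epithelia and can be shed by the protease ADAM10. CCR9 directs lymphocytes and plasmacytoid dendritic cells to the small intestine and thymus, where the epithelium secretes CCL25. Retinoic acid, made from vitamin A in the gut, is known to induce CCR9 together with the integrin α4β7 in lymphocytes.

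In the mm10 (GRCm38) genome the receptor genes are close neighbours. Ccr9 (ENSMUSG00000029530.16) lies at chr9:123678439-123784330 on the plus strand and ends 22144 bases before Cxcr6 (ENSMUSG00000048521.8), at chr9:123806475-123811760 on the same strand. Cxcr6 lies wholly inside Fyco1 on the opposite strand and shares no exonic base with it. Ccr9 shares 22 exonic bases with Slc6a20a and 1932 with AC165425.1, both on the opposite strand, and 269 with Gm17200 on its own strand. Cxcl16 (ENSMUSG00000018920.11), at chr11:70453983-70459984 on the minus strand, shares 552 exonic bases with Zmynd15. Ccl25 (ENSMUSG00000023235.14), at chr8:4325210-4360020 on the plus strand, shares 204 with Elavl1. The labels do not say whether the counting used strand, so reads from shared exons could have gone to either gene.

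The bases just before a transcription start are shown to set the receptor promoters beside that of the epithelial ligand. RefSeq promoter windows on GRCm38.p6 were found for 3 of the 4 members, and the 250 bases before the start are printed on the plus strand. Capitals mark matches to AGGTCA, a nuclear receptor recognition motif, and to TTTATG, bound by intestinal caudal-type homeobox proteins. TCACAC, a T-box motif, was searched too. Both strands were searched, so that AGGTCA was also sought in its reverse-complement spelling TGACCT. In the same way TTTATG was sought as CATAAA on the other strand, and the T-box motif as GTGTGA. The windows are chr9:123806227-123806476 for Cxcr6, chr9:123766961-123767210 for Ccr9 and chr8:4349338-4349587 for the downstream of the Ccl25 starts.
Cxcr6: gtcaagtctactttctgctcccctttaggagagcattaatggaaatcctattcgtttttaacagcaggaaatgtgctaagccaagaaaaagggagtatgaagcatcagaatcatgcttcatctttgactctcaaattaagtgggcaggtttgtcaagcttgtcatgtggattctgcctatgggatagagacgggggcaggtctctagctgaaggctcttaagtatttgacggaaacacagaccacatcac
Ccr9: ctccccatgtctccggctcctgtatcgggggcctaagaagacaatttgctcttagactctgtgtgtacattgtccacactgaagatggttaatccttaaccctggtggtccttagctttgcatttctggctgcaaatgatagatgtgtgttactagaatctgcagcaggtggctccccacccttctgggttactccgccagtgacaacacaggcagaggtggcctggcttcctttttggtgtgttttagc
Ccl25: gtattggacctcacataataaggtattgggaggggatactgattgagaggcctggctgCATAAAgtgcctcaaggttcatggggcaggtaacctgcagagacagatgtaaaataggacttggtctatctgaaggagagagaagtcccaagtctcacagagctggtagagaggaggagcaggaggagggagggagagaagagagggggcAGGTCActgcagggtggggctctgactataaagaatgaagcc
The Ccl25 window held AGGTCA 42 bases before the start and CATAAA 192 bases before it, and neither receptor window held any of the motifs. The window of the upstream Ccl25 start, which is not printed, held none of them either. Among 32851 mouse promoter windows of the same length, 14.0% held AGGTCA, 10.8% TTTATG and 12.3% TCACAC on either strand. A match is a description of the letters and not a binding site.

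The libraries held 14756545 unique molecular identifiers (UMIs, each standing for 1 captured RNA molecule) in intestine after UUO, 8717372 in sham intestine, 16466027 in knockout-labelled kidney and 10362652 in wild-type kidney. After filtering, 4946, 3501, 6960 and 5212 cells stayed in the same order, with median depths from 1824 to 2177 UMIs. Cells were named by cluster and by marker genes, so each type name means cells like that type. The intestinal sorts held 4077 ILC3s after UUO and 3053 after sham, with all 8 ILC3 markers detected. The kidney sorts labelled innate lymphoid cells held more T cells than innate cells: 2707 CD8 T cells in knockout-labelled kidney and 636 in wild-type kidney, beside 567 and 475 group 2 innate lymphoid cells (ILC2s) and 740 and 541 group 1 cells (ILC1s), and 0 and 1 gated ILC3. Pdcd1, the gene the strain lacks by its label, had 295 CPM in CD8 T cells of knockout-labelled kidney and 159 CPM in those of wild-type kidney, and 196 and 19.0 CPM in ILC1s. The labels do not say which exons the allele lacks, and reads outside a deleted stretch would not report it, so the label was not settled by the counts. The intestinal libraries also shared cell barcodes: 154 barcodes were kept in both, 142 of them with the same type in both, mostly epithelium (82) and macrophages (46) and seldom ILC3s (13). The ligand levels of epithelium as a whole are therefore given with and without those barcodes, as are both ligands in enterocytes and the ratio of Cxcl16 in myeloid cells. Other epithelial values include them.

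Each group is 1 library, so no test across samples was possible. Levels are CPM, the UMIs of a gene scaled to 1000000 UMIs of all cells of a type summed, with exact Poisson 95% intervals, and ratios are log2 with exact conditional binomial intervals. These intervals cover counting error only. Shares of cells with a UMI were taken after every cell had been thinned to 1000 UMIs, leaving out shallower cells. Fewer cells with a transcript and less transcript per cell cannot be told apart in a summed level. The kidney pair differs in both strain and day, which cannot be told apart.

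Cxcr6 reached its highest levels in ILC3s and ILC1s of sham intestine and in type 17 innate-like T cells of both kidney libraries. The γδ and remaining T cells of wild-type kidney were among the highest too. Among lymphoid cells Cxcr6 was lowest in kidney NK cells and B cells. It was lower in intestinal ILC3s after UUO than after sham. In knockout-labelled kidney at day 3 it was lower than in wild-type kidney at day 14 in type 17 innate-like, γδ, CD8, CD4 and remaining T cells and in CD3-bearing cells of the ILC1 and NK clusters, and higher in ILC2s. The intervals of the ratio crossed 0 in kidney ILC1s, NK cells, regulatory T cells and B cells. Ccr9 was narrower. It was concentrated in 1 cluster of intestinal ILC3s, in intestinal CD3-bearing cells, in ILC2s and in kidney dendritic cells with Siglech, and was near 0 in most kidney T cells, ILC1s and NK cells.

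**Figure D1:**
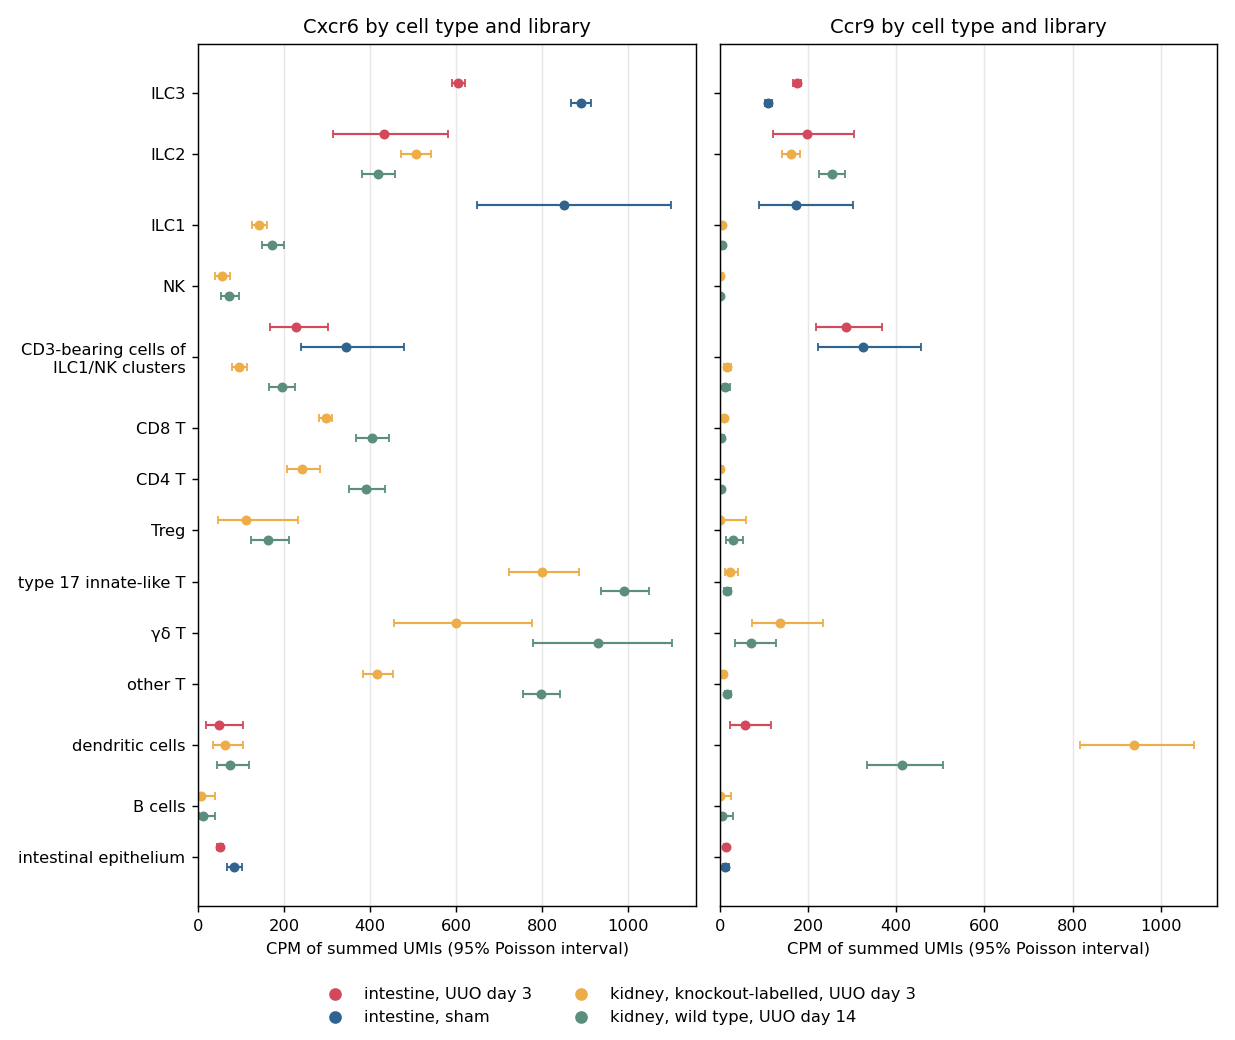
Cxcr6 (left) and Ccr9 (right) in CPM of summed UMIs, by cell type (rows) and library (colour), with exact Poisson 95% intervals, for types of at least 20 cells in a library. Cxcr6 reached 890.2 CPM in sham ILC3s and 992 CPM in type 17 innate-like T cells of wild-type kidney, while Ccr9 reached 939.6 CPM in dendritic cells of knockout-labelled kidney.

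In intestinal ILC3s Cxcr6 had 605 CPM (589 to 621) after UUO and 890.2 CPM (867 to 913) after sham. The log2 ratio was -0.56 (-0.61 to -0.50), just short of 1.5 fold, where 3.33% of 9066 genes were at least 1.5 fold higher and 1.11% at least 1.5 fold lower. Only 1.30% of the genes had a lower ratio than Cxcr6. The central 9 in 10 genes ran from -0.37 to 0.48. The share of ILC3s with a Cxcr6 UMI was 38.6% (37.0 to 40.2) after UUO and 49.6% (47.7 to 51.4) after sham at equal depth, and 57.1 and 68.0% before thinning, at median depths of 2171 and 2039 UMIs. Epithelium, which should lack the receptor, had a Cxcr6 UMI in 7.65% of cells after UUO and 10.9% after sham at equal depth, at median depths of 3070 and 1593 UMIs before thinning. Its Cxcr6 level of 50.2 CPM after UUO and 83.5 CPM after sham was 8.30 and 9.38% of that in ILC3s. For 5 other genes of ILC3s, the epithelial level was 7.89 to 16.3% of the ILC3 level after UUO and 9.44 to 17.8% after sham. The epithelial Cxcr6 UMIs thus were near or below those of the other ILC3 genes in epithelium and are read as background. ILC3 shares of Cxcr6 were well above it.

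All 4 clusters of ILC3s had less Cxcr6 after UUO. Cluster 2, led by Rbpms2, the cytokine gene Csf2, Ccr9 and Slc6a20a, had the most, with 923 CPM after UUO and 1302 CPM after sham (log2 ratio -0.50, -0.57 to -0.42; 1.51% of its genes at least 1.5 fold lower). Cluster 1, led by Cntn1, Ret and Tnfsf11, had 461 CPM after UUO and 663 CPM after sham (-0.52, -0.62 to -0.43; 1.41% lower). In both clusters the intervals of the ratio lie below 0. Cluster 7, led by Piwil4, Marcksl1 and Cd83, had 427 CPM after UUO and 720.5 CPM after sham, a log2 ratio of -0.75 (-0.91 to -0.60), past 1.5 fold with 1.73% of its genes. Cluster 8, led by the cytokine gene Il22, had 488 CPM after UUO and 772 CPM after sham, a log2 ratio of -0.66 (-0.91 to -0.42), past 1.5 fold with 2.15% of its genes. Clusters 1, 7 and 8 lay between 427 and 488 CPM after UUO and between 663 and 772 CPM after sham, all below cluster 2 of the same library. The members and the genes of the lists had been left out of the clustering, so the clusters were not drawn by their levels.

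**Figure D2:**
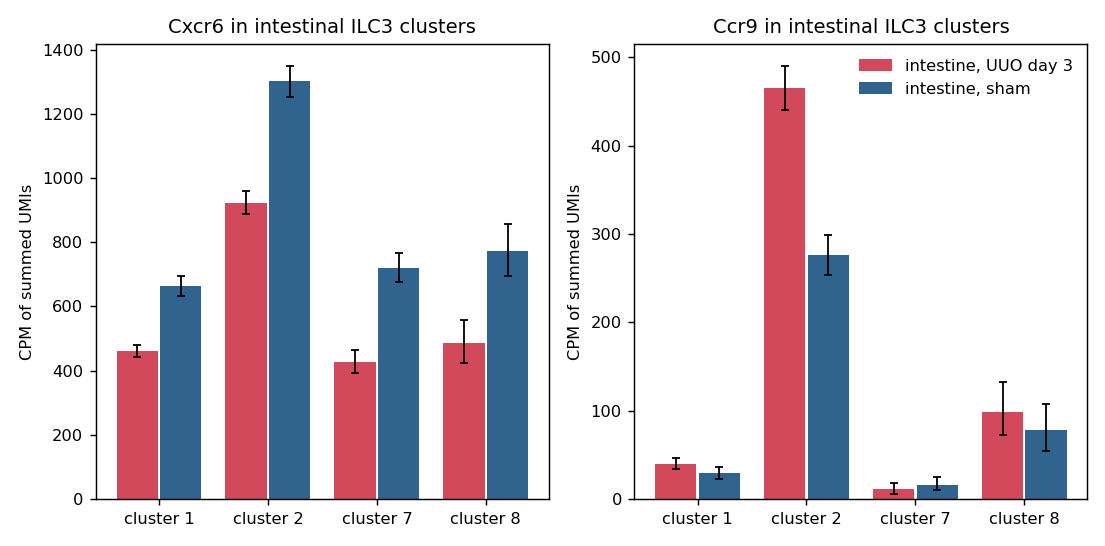
Cxcr6 (left) and Ccr9 (right) in CPM of summed UMIs in the 4 clusters of intestinal ILC3s, UUO beside sham, with exact Poisson 95% intervals. Cxcr6 is lower after UUO in each cluster, and Ccr9 lies mostly in cluster 2, with 465 CPM after UUO and 276 CPM after sham.

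ILC3s were also split by the detection of Ccr6, which marks lymphoid tissue inducer-like ILC3s, and of Ncr1, which marks NKp46+ ILC3s; this split was chosen after values had been seen. ILC3s with Ccr6 and without Ncr1, 855 after UUO and 551 after sham, had 457 CPM of Cxcr6 after UUO and 782 CPM after sham (log2 ratio -0.77, -0.91 to -0.64). ILC3s with Ncr1 and without Ccr6, 387 and 371 cells, had 955 CPM after UUO and 1330.3 CPM after sham (-0.48, -0.60 to -0.36). Cxcr6 was thus higher in the Ncr1-bearing cells in both libraries and lower after UUO in both subsets.

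Smaller intestinal populations held Cxcr6 too. The 28 ILC2s after UUO had 433 CPM (314 to 581) and the 28 ILC1s after sham 852 CPM (648 to 1099); the other library of each held under 20 such cells. Intestinal CD3-bearing cells of the ILC1 and NK clusters, 63 after UUO and 33 after sham, had 228 and 344 CPM, and their log2 ratio of -0.60 had an interval reaching past 0 (-1.26 to 0.08). The direction in CD3-bearing cells was therefore not fixed at this depth.

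In kidney, Cxcr6 was highest in type 17 innate-like T cells, which carry genes such as Il23r, Blk or Il17a. They had 800.4 CPM (722 to 885) in knockout-labelled kidney and 992 CPM (936 to 1049) in wild-type kidney, a log2 ratio of -0.31 (-0.48 to -0.14). γδ T cells had 600.0 CPM (454 to 777) and 930.4 CPM (779 to 1103), a ratio of -0.63 (-1.11 to -0.17), from 42 and 82 cells. The intervals of type 17 innate-like and γδ T cells overlap in both libraries, so their order is not fixed. The remaining T cells had 417 CPM in knockout-labelled kidney and 798 CPM in wild-type kidney, a ratio of -0.94 (-1.08 to -0.79). Of the genes measured in a population, 5.05% were at least 1.5 fold lower in γδ T cells and 11.1% in the remaining T cells. In type 17 innate-like T cells the share was 8.16%, and Cxcr6 was not among them.

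Conventional T cells had less. CD8 T cells, the largest type of knockout-labelled kidney, had 296 CPM in knockout-labelled kidney and 403 CPM in wild-type kidney (log2 ratio -0.44, -0.60 to -0.29; 6.24% of genes at least 1.5 fold higher and 6.1% lower). Within the T cell cluster led by Cd8b1, Cd8a and Gzmk, Cxcr6 had 283 CPM in knockout-labelled kidney and 314 CPM in wild-type kidney, and the interval of the ratio of -0.15 crossed 0 (-0.35 to 0.06). CD4 T cells had 242 and 391 CPM (-0.69, -0.97 to -0.42; 6.86% of genes lower). The 30 regulatory T cells of knockout-labelled kidney had 112 CPM and the 188 of wild-type kidney 163 CPM, and the interval of their ratio of -0.54 ran from -1.92 to 0.60. Over all T cells Cxcr6 had 344 CPM in knockout-labelled kidney and 657 CPM in wild-type kidney, a ratio of -0.93, where 10.9% of genes were at least 1.5 fold lower. Type 17 innate-like T cells were 161 of 3938 T cells of knockout-labelled kidney and 532 of 2902 of wild-type kidney. Within the T cell cluster led by Ly6g5b, Mmp25 and Blk, Cxcr6 had 836 CPM in knockout-labelled kidney and 964 CPM in wild-type kidney (-0.21, -0.32 to -0.09). In the T cell cluster led by Cd5, Cd4 and Trat1 it had 218 and 409 CPM (-0.91, -1.14 to -0.68), and in that led by Ifit3 and Ifit1 286 and 427 CPM (-0.58, -0.99 to -0.17). The ratio thus differed between T cell clusters.

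Among kidney innate cells, ILC2s had the most Cxcr6, with 506 CPM (471 to 542) in knockout-labelled kidney and 419 CPM (382 to 459) in wild-type kidney. They were the lymphoid type of at least 20 cells in both kidney libraries in which Cxcr6 was higher in knockout-labelled kidney, with a log2 ratio of 0.27 (0.10 to 0.44); 4.73% of ILC2 genes were at least 1.5 fold higher, and Cxcr6 was not among them. At equal depth 32.7% of ILC2s of knockout-labelled kidney and 29.4% of those of wild-type kidney had a Cxcr6 UMI. ILC1s had 142 and 173 CPM, a ratio of -0.28 whose interval reached 0.01 at its upper end from -0.57. That interval lay below 0 with the cluster class alone (-0.65 to -0.19), the marker gate alone (-0.81 to -0.01) and clustering resolution 0.5 (-0.61 to -0.04). In the other settings with an interval it crossed 0. NK cells had 54.5 and 71.3 CPM (-0.39, -1.01 to 0.23). CD3-bearing cells of the ILC1 and NK clusters had 94.8 CPM in knockout-labelled kidney and 194 CPM in wild-type kidney, a ratio of -1.03 (-1.37 to -0.69), past 1.5 fold with 5.42% of genes. B cells, which should lack Cxcr6, had 7.10 and 10.6 CPM, below all of these. Of single clusters, NK cluster 10 and the T cell cluster led by Foxp3 had more Cxcr6 in knockout-labelled kidney, with 22.7 and 14.1 CPM and with 105 and 77.1 CPM, from at most 30 UMIs a library and with intervals of the ratio that cross 0.

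**Figure D3:**
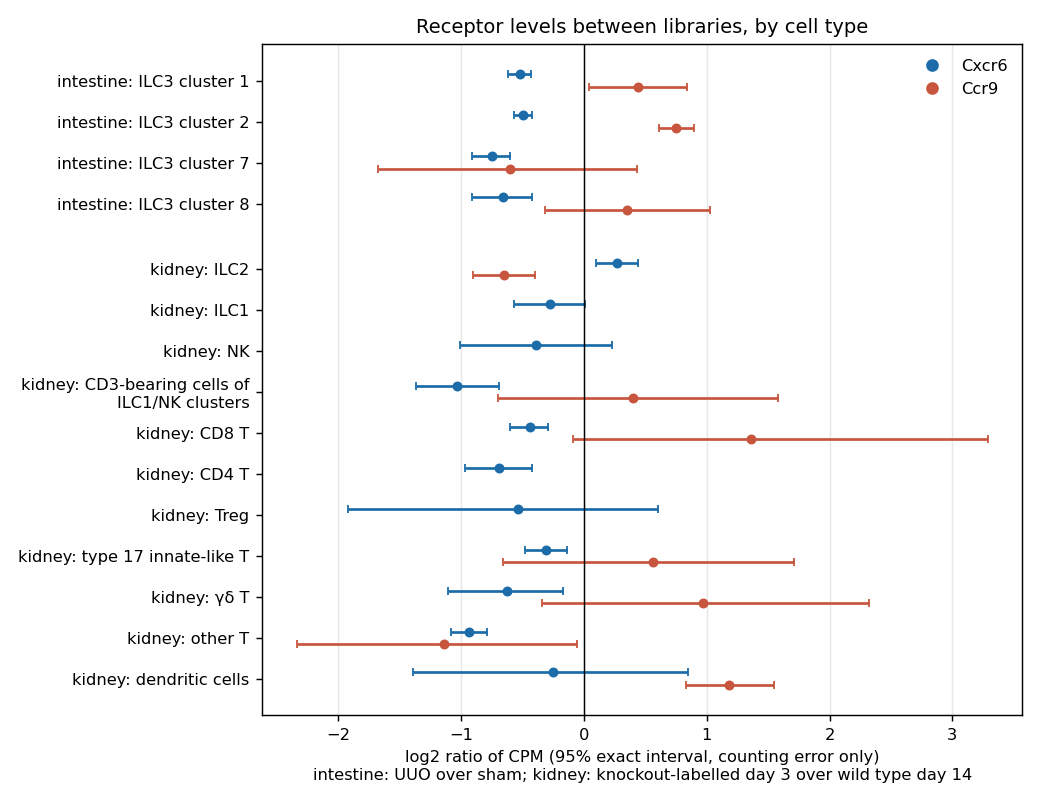
Log2 ratio of Cxcr6 and Ccr9 by cell type, UUO over sham in intestine and knockout-labelled over wild-type kidney, with exact conditional binomial 95% intervals; positive values are higher in UUO intestine or in knockout-labelled kidney. Intestinal ILC3s are drawn by cluster. Cxcr6 sits left of 0 in each ILC3 cluster and right of 0 in kidney ILC2s (0.27). Ccr9 lies right of 0 in ILC3 cluster 2 (0.75) and left of 0 in kidney ILC2s (-0.65). In ILC3 cluster 7 Ccr9 is at -0.6, with an interval that crosses 0.

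Ccr9 ran the other way to Cxcr6 in intestinal ILC3s. It had 175 CPM (166 to 183) after UUO and 110.2 CPM (102 to 119) after sham, a log2 ratio of 0.66 (0.54 to 0.79), past 1.5 fold with 3.33% of genes. At equal depth 9.74% of ILC3s after UUO and 7.28% after sham had a Ccr9 UMI. Epithelium had a Ccr9 UMI in 1.47% of cells after UUO and 3.36% after sham, and its Ccr9 level was 7.76 and 11.4% of that in ILC3s, within or just below the range of the 5 other ILC3 genes. Most Ccr9 UMIs of ILC3s lay in cluster 2: 1367 of 1603 after UUO and 587 of 721 after sham.

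In cluster 2 Ccr9 had 465 CPM (441 to 491) after UUO and 276 CPM (254 to 299) after sham, a log2 ratio of 0.75 (0.61 to 0.90), past 1.5 fold with 2.87% of its genes. At equal depth 27.9% of its cells after UUO and 19.5% after sham had a UMI. The other clusters had far less and no ratio past 1.5 fold upwards. Cluster 1 had 39.6 CPM after UUO and 29.3 CPM after sham (0.44, 0.04 to 0.84), and cluster 8 had 98.8 and 77.6 CPM (0.35, -0.32 to 1.03). Cluster 7 had 10.7 CPM after UUO and 16.2 CPM after sham, with an interval of the ratio from -1.68 to 0.43. The same difference appeared along Ncr1: ILC3s with Ncr1 and without Ccr6 had 487 CPM of Ccr9 after UUO and 297 CPM after sham (0.71, 0.50 to 0.92), and those with Ccr6 and without Ncr1 had 24.1 and 30.8 CPM (-0.36, -0.99 to 0.29).

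Other intestinal cells with Ccr9 were few. The 63 CD3-bearing cells after UUO had 286 CPM and the 33 after sham 325 CPM, with a log2 ratio of -0.18 (-0.82 to 0.48). The 28 ILC2s after UUO had 197 CPM (120.1 to 304), of which 1 cell held 18 UMIs, and the 28 ILC1s after sham had 173 CPM. These levels rest on few cells and their order is not fixed.

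Kidney ILC2s had the most Ccr9 of the innate lymphoid types of the kidney. They had 161 CPM (142 to 182) in knockout-labelled kidney and 254 CPM (225 to 285) in wild-type kidney, a log2 ratio of -0.65 (-0.90 to -0.40), past 1.5 fold with 3.23% of ILC2 genes. At equal depth 11.3% of ILC2s of knockout-labelled kidney and 16.4% of those of wild-type kidney had a UMI. NK cells, which should lack Ccr9, had 1 UMI in 361 cells of knockout-labelled kidney and 0 UMIs in 339 cells of wild-type kidney. ILC1s had 4.79 and 3.99 CPM, CD4 T cells 1.45 and 2.22 CPM, and CD8 T cells 9.52 and 3.71 CPM, all close to 0. Regulatory T cells had 0 UMIs in 30 cells of knockout-labelled kidney and 10 UMIs in 188 cells of wild-type kidney. Of the kidney T cells, γδ T cells had the most, with 137 CPM in knockout-labelled kidney and 70.0 CPM in wild-type kidney from 42 and 82 cells. Type 17 innate-like T cells, rich in Cxcr6, had only 23.2 and 15.7 CPM of Ccr9.

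Kidney dendritic cells, which the sort was not labelled to hold, had 939.6 CPM of Ccr9 (817 to 1075) in knockout-labelled kidney and 413 CPM (335 to 505) in wild-type kidney, a log2 ratio of 1.18, past 1.5 fold with 10.7% of genes. Over the whole dendritic cluster, without the marker gate, 512 and 336 CPM gave 0.61 (0.27 to 0.96). Nearly all of it lay in cells with Siglech, a marker of plasmacytoid dendritic cells, a split made after values had been seen. Of the 61 dendritic cells of knockout-labelled kidney 21 had Siglech, 19 of them with Ccr9, and they held 208 of 212 Ccr9 UMIs. Of the 65 of wild-type kidney 14 had Siglech, 13 of them with Ccr9, and they held 91 of 95. Within cells with Siglech the levels were 2642 CPM (2295 to 3026) and 2231 CPM (1796 to 2739), whose intervals overlap. Those without Siglech had 27.2 and 21.2 CPM. Cells with Siglech made up 34.4% of the dendritic cells of knockout-labelled kidney and 21.5% of those of wild-type kidney.

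Co-detection asks whether the same cells held transcripts of both receptors. At equal depth 5.41% of intestinal ILC3s after UUO (205 of 3790; 4.71 to 6.18) and 4.59% after sham (135 of 2940; 3.86 to 5.41) held both, intervals that overlap. Independent detection would give 3.76 and 3.61%, the product of the 2 shares. Before thinning both were found in 12.1 and 10.9% of ILC3s. Seen from Ccr9, 55.6% of ILC3s with Ccr9 and 36.8% of those without it held Cxcr6 after UUO, and 63.1 and 48.5% after sham. Seen from Cxcr6, 14.0% of ILC3s with Cxcr6 and 7.05% of those without it held Ccr9 after UUO, and 9.27 and 5.33% after sham.

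Much of this excess lay between clusters, since cluster 2 was highest for both receptors. Within cluster 2 both were held by 16.7% of cells after UUO and 13.5% after sham, against products of 14.96 and 12.98%. There Ccr9 was found in 31.1% (27.3 to 35.1) of cells with Cxcr6 and 24.2% (20.5 to 28.3) of cells without it after UUO. After sham the shares were 20.2% (16.9 to 23.8) and 18.02% (13.6 to 23.1). These intervals overlap in both libraries. Before thinning they did not: Ccr9 was found in 49.2% (45.7 to 52.6) of cells with Cxcr6 and 37.4% (31.1 to 44.0) of cells without it after UUO, and in 36.9% (33.4 to 40.6) and 21.2% (13.6 to 30.6) after sham, where cells with more Cxcr6 UMIs were deeper. Within cluster 1 Ccr9 was found in 3.34% of cells with Cxcr6 and 2.51% of cells without it after UUO, and in 2.48 and 2.59% after sham, so no difference was detectable there.

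**Figure D4:**
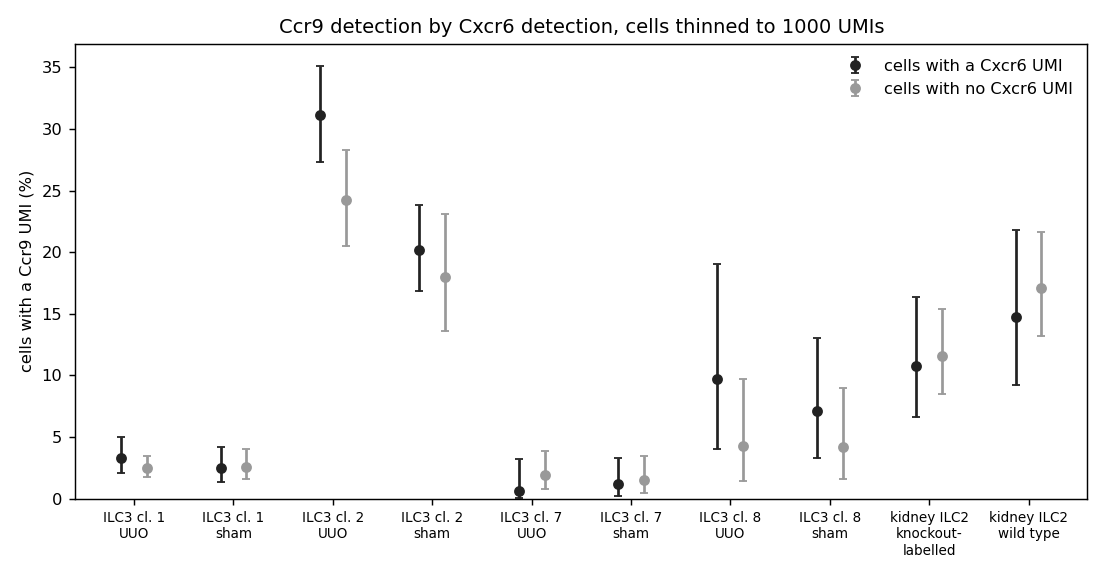
Share of cells with a Ccr9 UMI among cells with and without a Cxcr6 UMI after thinning each cell to 1000 UMIs, by population and library, with exact binomial 95% intervals. Within each ILC3 cluster and in kidney ILC2s the intervals overlap at this depth. The shares over all ILC3s, 14.0% with Cxcr6 and 7.05% without it after UUO, are given in the text.

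In kidney ILC2s both receptors were held by 3.53% of cells (2.14 to 5.46) in knockout-labelled kidney and 4.32% (2.66 to 6.59) in wild-type kidney, against products of 3.71 and 4.82%. Ccr9 was found in 10.8% of ILC2s with Cxcr6 and 11.6% of those without it in knockout-labelled kidney, and in 14.7 and 17.1% in wild-type kidney. The receptors were thus detected together about as often as independent detection gives. In kidney ILC1s no cell held both after thinning, of 715 in knockout-labelled kidney and 518 in wild-type kidney, which allows shares of up to 0.420 and 0.579% by 3 cells of the total and up to 0.515 and 0.710% by the exact interval. Before thinning 1 and 2 ILC1s held both.

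Of the ligands, Ccl25 was an epithelial transcript and Cxcl16 was spread over dendritic cells and epithelia. Ccl25 in intestinal epithelium had 812 CPM (782 to 842) after UUO and 750.3 CPM (700.1 to 803) after sham. The log2 ratio was 0.11 (0.00 to 0.23), and without the shared barcodes 792 and 683 CPM gave 0.21 (0.04 to 0.39). Neither is past 1.5 fold, where 8.73% of epithelial genes were higher and 8.76% lower. At equal depth 44.4% of epithelial cells after UUO and 43.7% after sham had a Ccl25 UMI.

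The makeup of the epithelium differed between the libraries, and enterocytes, its absorptive cells, went the other way. They had 999 CPM of Ccl25 (961 to 1038) after UUO and 1242 CPM (1150.4 to 1339) after sham, a log2 ratio of -0.31 (-0.44 to -0.19). Without the shared barcodes the ratio was -0.14 with an interval past 0 (-0.34 to 0.06), so it rests in part on those barcodes. Crypt cells after UUO had 352 CPM (283 to 432). Paneth cells, which secrete antimicrobial peptides at the crypt base, had 46.3 CPM after UUO, and goblet cells, which secrete mucus, 43.6 CPM after sham. These levels, from 33 Paneth cells and 21 goblet cells, were near that of ILC3s, but so few cells do not fix them.

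ILC3s themselves had 41.2 CPM of Ccl25 after UUO and 29.8 CPM after sham, which is 5.07 and 3.97% of the epithelial level. For 6 other enterocyte genes the ILC3 level was 4.27 to 7.18% of the epithelial level after UUO and 3.03 to 4.66% after sham. Ccl25 in ILC3s lies within that range and is read as background. Kidney T cells, which should lack it, had 4.70 CPM in knockout-labelled kidney and 6.50 CPM in wild-type kidney. Kidney dendritic cells had 8.86 and 8.71 CPM, from 2 UMIs in each library.

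Cxcl16 was highest in the 22 intestinal dendritic cells after UUO, with 603 CPM (474 to 756) and a UMI in 42.1% of cells at equal depth. Sham intestine had under 20 such cells. Dendritic cells and macrophages summed as myeloid cells gave a log2 ratio of 0.71 for UUO over sham with an interval from -0.12 to 1.65. Without the shared barcodes it was 0.22 (-0.64 to 1.19), as a mean over cells 0.23, and without the deepest 5% of cells, a setting chosen after seeing the data, 1.42. The macrophages, led by Chil3, Lyz2, Lpl and Mrc1, were shallow: 136 cells after UUO had 0 Cxcl16 UMIs, which allows up to 43.7 CPM by the Poisson interval, and the 49 after sham had 1 UMI. All 49 macrophage barcodes of sham intestine and 46 of the 136 after UUO occurred in both libraries.

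Kidney dendritic cells had 88.6 CPM of Cxcl16 (54.1 to 137) in knockout-labelled kidney and 279 CPM (215 to 356) in wild-type kidney. The log2 ratio was -1.65 (-2.45 to -0.91), past 1.5 fold, from 20 and 64 UMIs. Of genes with at least 100 UMIs 7.35% were at least 1.5 fold lower, a set that leaves out Cxcl16. Without the cells with Siglech, 129 and 333 CPM gave -1.37, and over the whole cluster without the marker gate 115 and 241 CPM gave -1.06. B cell markers summed to 727 CPM in the dendritic cells of knockout-labelled kidney and 5240.4 CPM in those of wild-type kidney, with 4 and 3 of 7 markers at 0; their part in the result was not tested, and B cells themselves had 0 Cxcl16 UMIs in both libraries. The kidney epithelium cluster was read without the marker gate, a choice made after values had been seen. Only 6 of its cells in knockout-labelled kidney and 3 in wild-type kidney passed that gate. From 22 and 21 cells, the cluster had 91.8 CPM of Cxcl16 (60.5 to 134) in knockout-labelled kidney and 261 CPM (182 to 363) in wild-type kidney. The ratio was -1.51 (-2.29 to -0.74). In wild-type kidney 1 cell held 37.1% of the Cxcl16 UMIs of the cluster. Cxcl16 was thus lower in knockout-labelled kidney in the dendritic cells and in this ungated cluster, on few cells.

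Cxcl16 in intestinal epithelium had 47.1 CPM (40.2 to 54.8) after UUO and 61.9 CPM (48.2 to 78.4) after sham, a log2 ratio of -0.39 whose interval reached 0.03 from -0.81. Without the shared barcodes 46.4 and 82.0 CPM gave -0.82 (-1.38 to -0.23). The direction turned in a mean over cells (0.61) and without the deepest 5% of cells (0.66, -0.64 to 2.23), a setting chosen after seeing the data. Enterocytes had 48.7 CPM after UUO and 67.9 CPM after sham, or 48.9 and 73.2 CPM without the shared barcodes, crypt cells 86.0 CPM after UUO, Paneth cells 15.4 CPM after UUO and goblet cells 95.9 CPM after sham. By these levels Cxcl16, unlike Ccl25, was not highest in enterocytes. The crypt and goblet levels rest on 31 and 21 cells, so that order is not fixed. Lymphoid cells had little: ILC3s 5.88 CPM after UUO and 5.20 CPM after sham, and kidney T cells 2.80 CPM in knockout-labelled and 1.30 CPM in wild-type kidney. Kidney ILC2s had 14.0 CPM in knockout-labelled kidney and 3.56 CPM in wild-type kidney, from 22 and 4 UMIs.

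**Figure D5:**
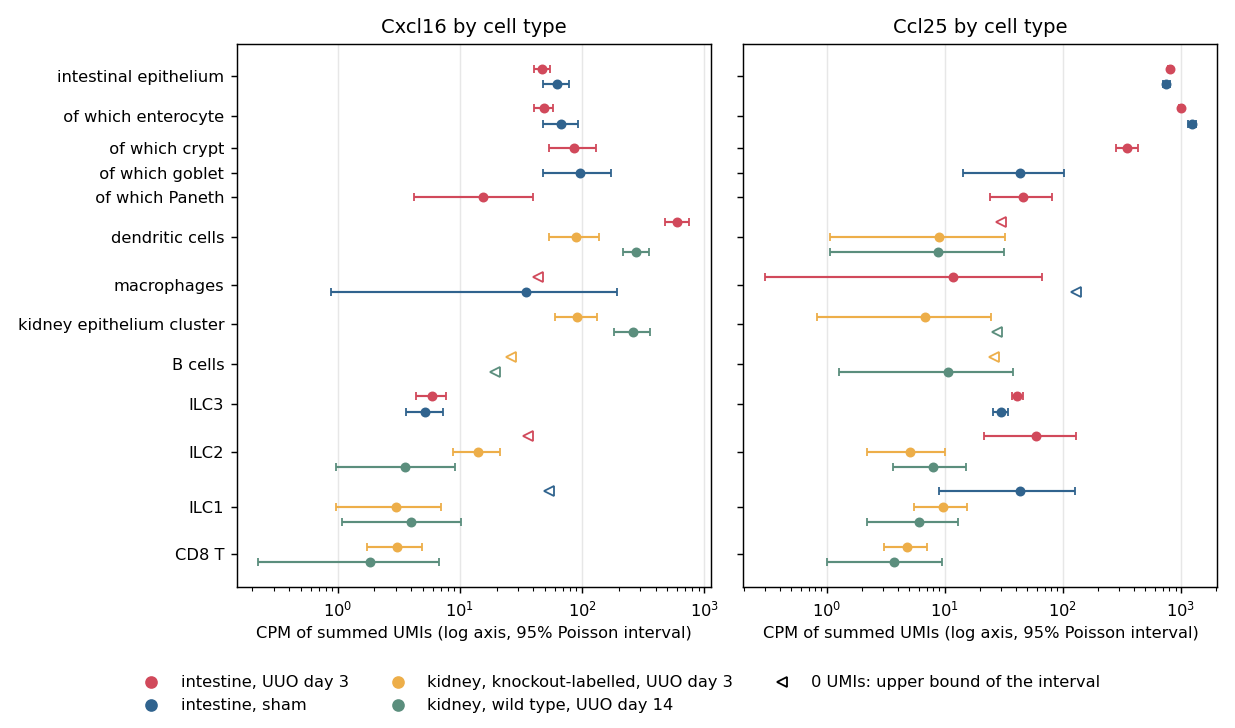
Cxcl16 (left) and Ccl25 (right) in CPM of summed UMIs on a log axis, by cell type and library, with exact Poisson 95% intervals; hollow triangles mark the upper bound where 0 UMIs were counted. Ccl25 is at 999 CPM in enterocytes after UUO and at most 59.0 CPM in the types shown other than enterocytes, crypt cells and epithelium as a whole, while Cxcl16 is highest in intestinal dendritic cells, at 603 CPM.

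Genes that accompany the receptors were read from lists, with a gene counted where it had at least 20 UMIs over both libraries. The shares over all genes instead took genes with at least 100 UMIs. List genes with fewer UMIs, here and in other cell types, are outside those shares and carry more counting error. Of the list genes past 1.5 fold in ILC3s, Itgae, Cyp26a1 and Ccl20 are such genes. In ILC3s, where 3.33% of genes were at least 1.5 fold higher and 1.11% lower after UUO with a median log2 ratio of 0.001, the lists moved little. Of the gut homing partners 1 of 5 measured was higher, Itgae, the αE integrin chain that binds E-cadherin, with a ratio of 1.70 from 41 UMIs after UUO and 9 after sham. The α4β7 chains Itga4 and Itgb7 had 0.01 and -0.13. Of the retinoic acid genes 2 of 9 were higher: Aldh1a1, which makes retinoic acid, with 44.6 CPM after UUO and 14.1 CPM after sham (1.67), and Cyp26a1, which degrades it (1.35). Aldh1a1 was also higher in epithelium (1.49), with 1000.3 CPM after UUO and 355.4 CPM after sham. As a part of the epithelial level, Aldh1a1 in ILC3s lies within the range of the enterocyte genes in both libraries. It is therefore read as background, like Ccl25 in ILC3s. Intestinal epithelium markers summed to 1551 CPM in ILC3s after UUO and 815 CPM after sham. The part of these markers in the result was not tested.

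None of the 8 measured tissue residency factors was past 1.5 fold in ILC3s (median -0.16), and Tbx21, a T-box factor of type 1 lymphocytes, had -0.49. None of the 13 genes of chemokine receptor signalling was either (median 0.04), with Rgs2, which dampens G protein signals, at 0.34, and Grk2 and Grk6, kinases that switch off such receptors, both at -0.32. Of ligand shedding and scavenging 0 of 2 were, with the protease gene Adam17 at -0.37. The 11 measured neighbours in the genome had a median of -0.04. Fyco1, which encloses Cxcr6, had -0.46, Xcr1, the receptor gene next to it, -0.40, and Slc6a20a, which overlaps Ccr9, 0.13. Of 6 other chemokines 1 had a ratio past 1.5 fold, Ccl20, the CCR6 ligand, at 1.10 from 15 UMIs after UUO and 5 after sham, with an interval that crosses 0 (-0.44 to 2.91).

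In intestinal epithelium 8.73% of genes were at least 1.5 fold higher and 8.76% lower after UUO, with a median log2 ratio of -0.085. There 3 of 6 other chemokines were lower, Ccl9 (-1.97), Ccl28 (-1.53), which attracts CCR10-bearing lymphocytes to mucosa, and Ccl6 (-0.90). Ccl20 was higher (1.65). Enterocytes were 319 of 436 epithelial cells after UUO and 115 of 206 after sham, and goblet cells 16 and 21. The part of this makeup in the chemokine ratios was not tested. In kidney ILC2s, with 4.73% of genes at least 1.5 fold higher and 3.23% lower in knockout-labelled kidney, 2 of 5 gut homing partners were higher, Itgae (1.02) and Itgb1 (0.76). Of the 7 tissue residency factors 1 was higher, Ahr, the aryl hydrocarbon receptor (0.76), and 2 of 8 genome neighbours were lower, Ccr2 (-0.80) and Ccrl2 (-0.60). None of the 6 retinoic acid genes and none of the 14 signalling genes was past 1.5 fold there. Of 3 other chemokines 1 was higher, Cxcl9, with 35 UMIs in knockout-labelled kidney and 0 in wild-type kidney, so that it has no finite ratio.

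The pattern of each receptor was set beside that of 10139 genes over 23 sums of a lymphoid type in a library, by Pearson correlation of log2(CPM + 10). The sums share libraries, depth and free RNA, so the correlations are descriptions. Most like Cxcr6 were Lonp2 (0.916), Galnt12 (0.902), Mdfic (0.885), Rnft1 (0.885) and F2r (0.878), which encodes a thrombin receptor. Most like Ccr9 were Papss2 (0.940), Fos (0.887), Tmem273 (0.877), Anpep (0.877) and Tm4sf5 (0.864). Anpep is also an enterocyte gene, and its 279 CPM in ILC3s after UUO was 4.94% of its epithelial level. It is among the 6 enterocyte genes that set the range given above, so it lies within that range by construction. The receptors correlated with each other at 0.486.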

How the data were processed

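Of 5 labelled libraries, 1 per group, 4 were analysed; wild-type kidney at day 3 was not analysed here beyond its 5444 barcodes. The values the authors deposited are raw counts of UMIs per gene and cell, made with the BD Rhapsody system per the labels' protocols. CASAVA 1.8, UMI-tools, Seurat and the mm10 build were used per the submitters' processing notes, with the aligner not given in the sources used here. Of 31253 gene identifiers 31107 matched the GRCm38 annotation. Counts of wild-type kidney carried no gene names and took the order of the other libraries, an order checked against knockout-labelled kidney (Pearson correlation of log2(CPM + 1) over genes 0.992, and 0.209 after a shift by 1 gene).

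Cells with at least 500 UMIs, 250 genes and at most 20% mitochondrial UMIs were kept and clustered together without batch integration (python 3.11.15, scanpy 1.11.5, anndata 0.12.19, leidenalg 0.10.2, numpy 2.4.6, scipy 1.17.1, pandas 2.3.3, matplotlib 3.10.9), on 2000 variable genes, 30 components, 15 neighbours and resolution 1.0, leaving out the 4 genes and the list genes. Clusters were named by at least 3 markers (each at least 2 fold over all other cells and in 10% of cells), and cells were then gated on marker UMIs, with 2 UMIs of CD3 genes for a T cell. Doublets were kept, as the caller tried marked at most 0.115% of a library. UMIs were summed by type and library and scaled to CPM. The ratio script was tested on simulated data. Types needed 20 cells, likeness sums 50 cells and likeness genes 100 UMIs. A floor of a 0 count is 3 counts.

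The genes named were the 4 members, the 5 genes most like each receptor, and up to 4 members of each of 7 lists with the largest ratios; Itga4 and Slc6a20a were named beside them after their values were seen. The members and the lists were chosen with earlier results of these data known. Alternatives were other gates, clusterings, filters, scalings and thinning depths, the removal of shared barcodes and, chosen after seeing the data, of the deepest 5% of cells. Results that need certain withheld genes are not reported here.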

Additional observations from a re-analysis of the deposited data

How the results depend on the processing

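Of 106 results under other settings 98 moved by less than their interval and 8 moved by more. The sign changed in some settings for Cxcl16 and Ccl25 in intestinal epithelium, as given below, and in no other result. For the shares at equal depth, a minimum of 1000 UMIs per cell repeats the main setting by construction. The shares of ILC3s with both receptors followed the thinning depth: 2.11% after UUO and 1.77% after sham at 500 UMIs, and 8.40 and 7.88% at 1500 UMIs. Cxcl16 in intestinal epithelium gave a log2 ratio of -0.82 without shared barcodes, 0.61 as a mean over cells and 0.66 without the deepest 5% of cells, a setting chosen after seeing the data, so its direction is not settled; the cause was not tested. Ccl25 in intestinal epithelium gave -0.02 with the marker gate alone; the cause was not tested. Cxcr6 in ILC3s stayed between -0.56 and -0.54 and Ccr9 between 0.61 and 0.68. Kidney Cxcr6 ranged from 0.20 to 0.31 in ILC2s, -0.42 to -0.22 in ILC1s, -0.46 to -0.32 in CD8 T cells and -0.70 to -0.63 in CD4 T cells. Removal of doublets was not run, since the caller marked 0, 1, 0 and 6 cells. No paired analysis was possible because each group is 1 library, and leaving out a replicate was not possible for the same reason. Depth limits Cxcl16 and kidney Ccl25, with few UMIs per type, and the macrophages were shallow.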

Other observations

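In kidney CD8 T cells, where 6.24% of genes were at least 1.5 fold higher in knockout-labelled kidney and 6.1% lower, the lists also moved in single genes. Of 5 gut homing partners 1 was lower, Itgae (log2 ratio -1.90), and the α4 integrin gene Itga4 had 0.52. Of 8 tissue residency factors 1 was higher, Bhlhe40 (0.68). Of 14 signalling genes 1 was higher, Rgs16 (2.05), and 2 were lower, Arrb1 (-1.37) and Rgs1 (-0.83). Of 9 genome neighbours Ccr2 (-1.64) and Ccr3 (-5.53, from 6 UMIs in knockout-labelled kidney and 57 in wild-type kidney) were lower, and Ccrl2 had 0.71 with an interval that crosses 0 (-0.01 to 1.5). Of 2 other chemokines both had ratios past 1.5 fold, Cxcl10 (0.90, 0.35 to 1.5) and Ccl6 (2.36, -0.25 to 7.72, from 25 UMIs in knockout-labelled kidney and 1 in wild-type kidney).

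Over the 23 lymphoid sums, Xcr1, the receptor gene beside Cxcr6, correlated with Cxcr6 at 0.845, while Fyco1, which encloses it, had 0.353. Lztfl1 and Slc6a20a, which overlap Ccr9, correlated with it at 0.671 and 0.587. Within cluster 2 of the intestinal ILC3s, the summed Ccr9 level by the number of Cxcr6 UMIs in a cell (0, 1, 2, and 3 or more) was 360.5, 463, 417 and 526 CPM after UUO and 152.5, 167, 337 and 302 CPM after sham. The intervals at 0 and at 3 or more did not overlap, at 312 to 415 and 487 to 566 CPM after UUO and at 105 to 214 and 271 to 335 CPM after sham. Cells with more Cxcr6 UMIs were deeper, with median depths of 2298.5 UMIs at 0 and 3074.5 UMIs at 3 or more after UUO.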
